A study of Mus musculus with 4 samples.

Results

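The comparison set the glomeruli of mice that carried both insults, loss of guanylyl cyclase A and aldosterone with a salt diet, against the glomeruli of mice that carried neither. It used 2 of the 4 arrays of the study, the KO ALDO array and the WT control array, and was read gene by gene over the 9097 brighter genes. Of these, 273 were 2-fold or more higher in KO ALDO and 61 were 2-fold or more lower. For each large difference the other 2 arrays, KO control and WT ALDO, showed how much of it was present with 1 insult alone.

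All mice were male and had had a kidney removed, the WT control mice included. WT is the wild type, and KO is the knockout, in the whole body, of GC-A (guanylyl cyclase A), which Npr1 encodes. Control mice received 2% ethanol by continuous subcutaneous delivery and ate normal chow. ALDO mice received aldosterone by the same route and ate a diet of 6% salt for 3 weeks. Each group was 1 array of total RNA from glomeruli, hybridised as biotin-labelled complementary RNA to an Affymetrix mouse 3' array. Whether an array held RNA of a single mouse or of a pool, the strain, the age and the way glomeruli were isolated are not stated in the material analysed here.

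GC-A is the receptor through which atrial and B-type natriuretic peptides raise cyclic GMP, which relaxes vessels, promotes sodium excretion and opposes the renin-angiotensin-aldosterone system. Aldosterone acts through the mineralocorticoid receptor to retain sodium, and with a high salt intake and reduced renal mass it is a standard way to injure the heart, vessels and glomeruli. The glomerulus is a capillary tuft of fenestrated endothelium, mesangial cells and podocytes, enclosed by parietal epithelium and adjoined by the proximal tubule.

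With 1 array per group no difference was tested, and every value below is a difference between single arrays, in log2(intensity + 16), a scale that understates the change of dim genes. Higher and lower describe these arrays, not the conditions. All 3 differences from WT control share that array, so a reading that was off on it enters each of them, and its part was not tested. Intensities below are deposited probe set intensities, always listed from WT control through KO control and WT ALDO to KO ALDO. In bulk RNA, fewer cells of a type and less RNA per cell cannot be told apart.

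Each array had a trimmed mean of 500.003, and the medians ranged from 89.5 to 103. The 3'-to-5' ratio of beta-actin was 1.86, 1.67, 1.87 and 1.61, and that of Gapdh lay between 0.741 and 0.785. Over 21 probe sets for spiked-in control RNA the median difference of KO ALDO from WT control was -0.15, with a range from -0.35 to 0.14. The defining podocyte markers were bright on every array, with Podxl at 9120 or more on WT control and KO ALDO and Nphs1 between 1675 and 1899. Tubular RNA was abundant as well: the proximal tubule gene Slc34a1 read between 24042 and 27261, and Umod of the thick limb between 27142 and 30615. On WT control the summed intensity was 371415 over 17 proximal tubule probe sets and 63293 over 20 podocyte probe sets. The differences below are therefore those of glomeruli together with tubule, and the share of each was not tested. The targeted transcript gave no check of the genotype labels. Npr1 read 92.6, 108, 60.5 and 23.4, near or under the median of each array, and where its probes lie relative to the deleted part is not stated in that material.

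The combined difference was mostly upward. The 273 genes that were 2-fold or more higher made 3.00% of the 9097, and the 61 lower genes made 0.671%. The same rule took 88 higher genes (0.967%) and 16 lower genes (0.176%) in KO control, and 30 higher (0.330%) and 32 lower (0.352%) in WT ALDO, each against WT control. The median difference over all genes was 0.01, and 51.2% of genes lay above 0. The upward lean depended on the scaling: when arrays were centred on their medians the median over all genes became -0.17 and the split became 155 higher and 137 lower, and with quantile normalization it was 237 and 73. Centring lowered every combined difference by 0.17, so counts of genes above 0 hold for the deposited scaling, and the list medians between 0 and that value (podocyte, renin-angiotensin, sterol synthesis and glycolysis) became negative. Of the higher genes, 43 were past 3-fold and 16 past 4-fold, against 10 and 3 of the lower genes. On WT control, 67 of the 273 higher genes read under 247, the low end of the genes counted, so they were counted through their other arrays. A second bright probe set was available for 61 higher genes and pointed the same way in 59, being past 2-fold in 34. It was available for 19 lower genes and pointed the same way in 18, being past 2-fold in 6.

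Most of the large differences were not past 2-fold with either insult alone. Of the 273 higher genes, 188 (68.9%) were past 2-fold in neither single array, 65 (23.8%) in KO control only, 15 (5.49%) in WT ALDO only and 5 (1.83%) in both. Of the 61 lower genes the same counts were 40 (65.6%), 5 (8.20%), 12 (19.7%) and 4 (6.56%). Being in neither class does not mean absent from the single arrays. The 188 genes had a median difference of 1.15 in KO ALDO, 0.58 in KO control and 0.41 in WT ALDO, and for 83 of them the 2 single differences added up to 2-fold or more.

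Taken over all 273 higher genes, KO control showed a median of 56.6% of the combined log2 difference and WT ALDO 34.7%. KO control was further from WT control than WT ALDO was in 204 of the 273. For the 61 lower genes the medians were 47.6% and 44.9%, and KO control was the further array in 34. KO ALDO was the highest of the 4 arrays for 252 of the 273 higher genes and the lowest for 52 of the 61 lower genes. WT control was the array at the opposite end for 252 higher and 50 lower genes. The genes were chosen by a large difference between KO ALDO and WT control. That choice favours these arrays as the ends, so the counts carry it, and its part was not tested. KO control lay at or on the other side of WT control for 9 higher and 4 lower genes, and WT ALDO for 13 and 7.

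**Figure D1:**
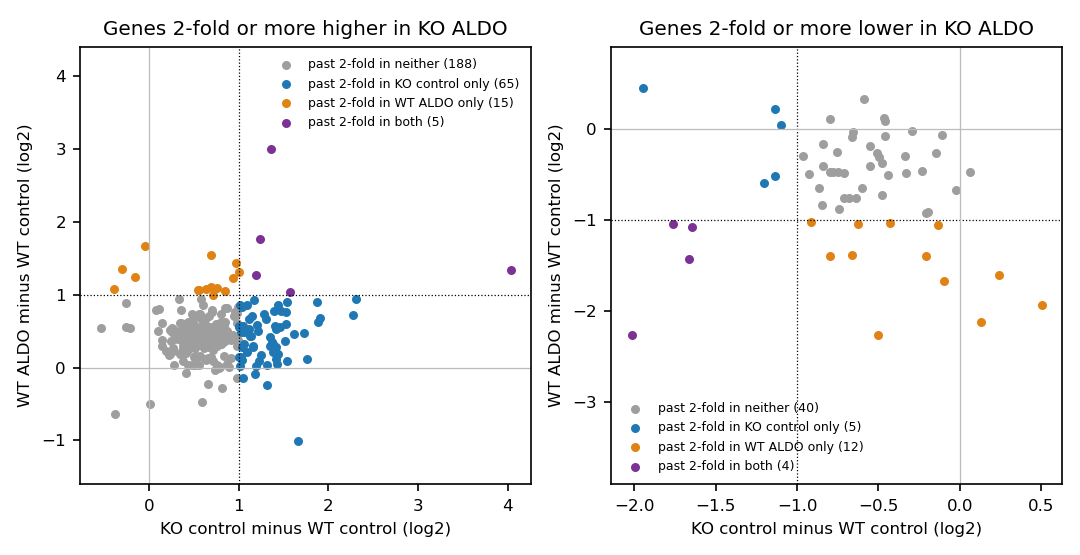
Difference of KO control (horizontal axis) and of WT ALDO (vertical axis) from WT control, log2(intensity + 16), for the 273 genes 2-fold or more higher (left) and the 61 genes 2-fold or more lower (right) in KO ALDO, 1 point per gene and 1 array per group. Dotted lines mark 2-fold. Most points of both panels lie inside the dotted lines, where neither single array reached 2-fold (188 and 40 genes), and on the left more lie to the right of the line for KO control alone (65) than above the line for WT ALDO alone (15).

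The 12 highest genes were led by Lcn2, and 8 of the 12 were past 2-fold in KO control alone. Lcn2, lipocalin 2, an iron-siderophore-binding protein secreted by injured tubule, read 76.5, 1497, 218 and 1950, a combined difference of 4.41 or 21.2-fold. KO control was already at 4.03 (91.4% of it) and WT ALDO at 1.34. The WT control reading was under the median of its array, so the size of this fold rests on a dim value.

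The complement genes C1qb and C1qa, made by macrophages, were already past 2-fold in KO control. C1qb read 145, 781, 293 and 1059, with differences of 2.74 in KO ALDO, 2.31 in KO control and 0.94 in WT ALDO. Its next-brightest probe set gave 1.38 in KO ALDO. C1qa read 243, 722, 317 and 1196, with 2.23, 1.51 and 0.37. Both were high on both knockout arrays and low on both wild-type arrays.

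Spink8, a Kazal-type serine peptidase inhibitor, read 364, 1819, 612 and 2318 and stood at 2.62 in KO ALDO, 86.7% of it present in KO control. Cldn4, a tight junction claudin of distal nephron, read 527, 2025, 858 and 2858, a difference of 2.40 with 79.5% in KO control. Ltc4s, leukotriene C4 synthase, read 276, 949, 391 and 1406, a difference of 2.28 with 75.5% in KO control. For these 3 genes the order of the arrays was the same: WT control lowest, then WT ALDO, then KO control, then KO ALDO.

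Adm, the vasodilator peptide adrenomedullin, was split about evenly between the single arrays. It read 352, 825, 873 and 1944, so that KO control stood at 1.19, WT ALDO at 1.27 and KO ALDO at 2.41, within 0.05 of the sum of the single differences. Its next-brightest probe set gave 2.49. Cdkn1a, the cell cycle inhibitor p21, read 203, 554, 258 and 885, a difference of 2.04 with 67.6% in KO control, but the mean of all its probe sets gave 1.33.

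Cyp4a14 and Sost were higher in WT ALDO than in KO control. Cyp4a14, a fatty acid omega-hydroxylase and target of PPAR-alpha, read 1740, 4497, 14048 and 11113, so that KO control stood at 1.36 and WT ALDO (3.00) was further from WT control than KO ALDO was (2.66). Sost, the secreted Wnt antagonist sclerostin, read 179, 158, 445 and 806, with KO control at -0.16, WT ALDO at 1.24 and KO ALDO at 2.08. Mgp, matrix Gla protein, an inhibitor of vascular calcification, read 1592, 2697, 3413 and 6436, a difference of 2.00 with 1.09 in WT ALDO. Sparcl1, a matricellular protein, reached 1.90 with 1.30 in WT ALDO, and lay just under 2-fold in KO control.

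**Figure D2:**
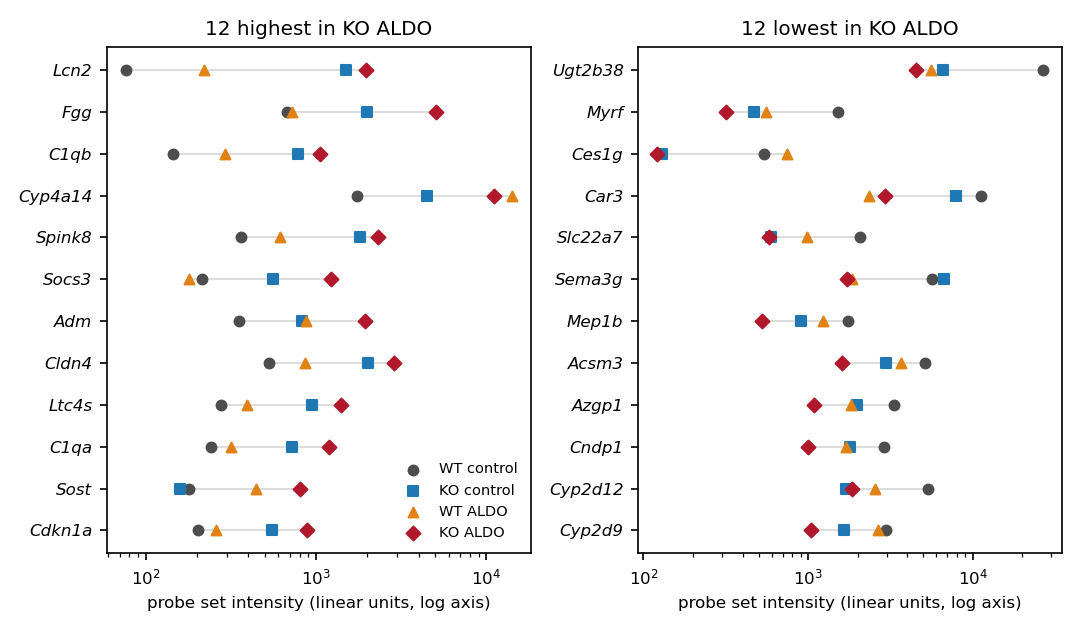
Intensity on each of the 4 arrays (log axis) of the 12 genes highest and the 12 genes lowest in KO ALDO relative to WT control, with 1 array per group and no error bars. For Lcn2, C1qb, Spink8, Cldn4 and Ltc4s the KO control point lies close to KO ALDO, for Sost and Sema3g the 2 ALDO arrays lie on 1 side, and for Cyp4a14 and Car3 WT ALDO lies beyond KO ALDO.

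Acute phase genes and targets of STAT3, the transcription factor activated by receptors of the interleukin-6 family, had the highest median of the 34 gene lists. All 11 counted genes of this list were higher in KO ALDO, with a median of 1.50, and 7 were past 2-fold. Lcn2, Socs3, Cebpd and Il4ra read under 247, the low end of the genes counted, on WT control. They were counted through their other arrays, which favours a higher reading in KO ALDO, so the count and median carry that choice. The list's median was 0.69 in KO control and 0.13 in WT ALDO. Besides Lcn2 it held the fibrinogen chains, which the liver secretes as clotting factor and which injured kidney epithelium also makes. Fgg, the gamma chain, read 676, 1995, 721 and 5082, a difference of 2.88, of which KO control showed 53.4% and WT ALDO 3.14%. Fga, the alpha chain, read 742, 1176, 812 and 3064, a difference of 2.02 with 0.65 and 0.13 in the single arrays. Fgb, the beta chain, was not among the counted genes, as its mean was low, but it read 61.3, 119, 140 and 742. All 3 chains were highest on KO ALDO, and the next array was KO control for Fgg and Fga and WT ALDO for Fgb.

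Socs3, the feedback inhibitor induced by STAT3, read 215, 558, 180 and 1221, a difference of 2.42 (1.81 in its next-brightest probe set). KO control stood at 1.31 while WT ALDO stood at -0.24. Osmr, the oncostatin M receptor, reached 1.50, Cp (ceruloplasmin) 1.56 (2.17 in its next-brightest probe set) and Cebpd, an acute phase transcription factor, 1.37, with 0.59, 0.87 and 0.98 in KO control. Stat3 itself read 1355, 2198, 1445 and 2434, a difference of 0.84. The shared receptor subunit Il6st was at 0.51, but at -0.19 in its next-brightest probe set, so its direction depends on the probe set. The ligand Il6 was dim on every array, from 0.903 to 33.0.

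The promoters of Socs3 and of the fibrinogen chains are shown because in these genes KO ALDO lay 2-fold or more beyond the sum of the 2 single differences. Each sequence is the 250 bases before the start of the gene, 5′ to 3′ on the gene's own strand, from RefSeq on GRCm38.p6, with every match to the STAT motif TTCNNNGAA in capitals. The motif reads the same on both strands.
Socs3, chr11:117969367-117969616, minus strand: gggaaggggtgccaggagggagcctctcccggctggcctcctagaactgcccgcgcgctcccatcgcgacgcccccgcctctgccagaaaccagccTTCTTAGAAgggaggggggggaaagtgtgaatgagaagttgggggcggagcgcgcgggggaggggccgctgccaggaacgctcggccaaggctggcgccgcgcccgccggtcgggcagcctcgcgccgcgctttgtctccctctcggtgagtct
Fga, chr3:83025903-83026152, plus strand: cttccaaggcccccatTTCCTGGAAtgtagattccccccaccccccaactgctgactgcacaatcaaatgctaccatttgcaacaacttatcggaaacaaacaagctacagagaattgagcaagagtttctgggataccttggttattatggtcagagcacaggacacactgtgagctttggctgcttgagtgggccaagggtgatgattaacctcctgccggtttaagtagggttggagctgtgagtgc
Fgb, chr3:83049864-83050113, minus strand: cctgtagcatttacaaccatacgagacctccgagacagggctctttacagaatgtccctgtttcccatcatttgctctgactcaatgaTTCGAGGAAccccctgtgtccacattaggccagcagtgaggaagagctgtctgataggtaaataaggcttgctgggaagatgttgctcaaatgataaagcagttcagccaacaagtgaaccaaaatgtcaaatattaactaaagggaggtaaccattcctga
Fgg, chr3:83007474-83007723, plus strand: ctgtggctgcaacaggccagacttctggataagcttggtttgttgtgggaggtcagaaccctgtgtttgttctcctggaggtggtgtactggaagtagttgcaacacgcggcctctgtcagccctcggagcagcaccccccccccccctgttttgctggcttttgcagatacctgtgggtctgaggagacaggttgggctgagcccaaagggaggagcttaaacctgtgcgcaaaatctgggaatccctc
Socs3 held 1 match, TTCTTAGAA, which starts 154 bases before the gene. Fga held TTCCTGGAA at 234 bases and Fgb held TTCGAGGAA at 162 bases before the start, and Fgg held no match in this window. Of the 16 genes of the list whose promoters RefSeq gave, 3 held the motif, the ones just named. It was present in 7.02% of all 32851 promoter windows. Counted per gene, it was present in 6.65% of the 7461 counted genes that could be matched. The same count gave 11 of the 200 higher genes that could be matched (5.50%) and 2 of 39 lower genes (5.13%). A match of letters is no evidence of binding in these glomeruli.

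Macrophage and antigen presentation genes were higher in KO ALDO, mostly at the level that KO control already had. All 11 counted macrophage and monocyte genes were higher, with medians of 1.36 in KO ALDO, 1.13 in KO control and 0.26 in WT ALDO, and 6 were past 2-fold, 5 of these in KO control as well. C1qb, C1qa and Laptm5 read under 247 on WT control and were counted through their other arrays, so the count and median carry that choice. Fcer1g and Tyrobp, adaptor proteins of activating immune receptors, stood at 1.59 and 1.54 in KO ALDO and at 1.42 and 1.40 in KO control. Lyz2 (lysozyme) and Ctss (cathepsin S) were no higher in KO ALDO than in KO control: Lyz2 read 1153, 2541, 951 and 2247, and Ctss 855, 1712, 524 and 1444. Cd14, a co-receptor for lipopolysaccharide, differed in pattern, at 303, 446, 451 and 806. The summed intensity of the 18 macrophage probe sets was 7422, 14802, 7380 and 16373, about equal on the 2 wild-type arrays. The macrophage gene Adgre1 was under the counted range and read 154, 322, 164 and 415.

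The 5 counted genes of MHC class II had medians of 1.02, 0.83 and 0.16 in KO ALDO, KO control and WT ALDO, and 4 were past 2-fold. Cd74, the invariant chain, read 548, 1717, 760 and 1578. All 12 interferon-stimulated genes were higher, with medians of 0.92, 0.66 and 0.28 and 5 past 2-fold, from Gbp3 at 1.23 to Gbp2 at 0.13. Gbp3, Ifi27l2a, Irf7 and Ifit1 read under 247 on WT control and were counted through their other arrays. Of 8 counted chemokine and adhesion genes, all were above 0 and 1 was past 2-fold: Vcam1, the endothelial and epithelial ligand for leukocyte integrins, read 325, 895, 400 and 1026. The chemokines Ccl2 and Cxcl2 were dim, at 35.1, 55.0, 17.2 and 149 and at 33.1, 69.5, 23.8 and 196. Of the lymphocyte list 2 genes were counted, and Ptprc (CD45) was at 1.11 in KO ALDO and 1.16 in KO control. The neutrophil gene S100a8 read 383, 462, 34.5 and 533, low on WT ALDO alone.

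Tubular injury genes were higher too. Of 13 counted genes 12 were above 0, the median was 1.26 (0.72 in KO control, 0.16 in WT ALDO), and 8 were past 2-fold. Over all genes 3.00% were past 2-fold higher. Lcn2 and Cdkn1a of this list read under 247 on WT control and were counted through their other arrays, so the count and median carry that choice. Clu (clusterin, a secreted chaperone) read 10116, 19287, 13782 and 24169, a difference of 1.26, with 1.22 in its next probe set. Vim, the mesenchymal intermediate filament vimentin, read 3533, 4288, 3607 and 8566, so that 1.27 in KO ALDO stood against 0.28 and 0.03. S100a6, a calcium-binding protein, was at 1.33, and the epithelial keratins Krt18 and Krt7 at 1.32 and 1.15. Krt8 was at 0.41, and Plin2, of lipid droplets, at 0.00.

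The rule on brightness left out 2 injury markers whose difference was large. Havcr1, kidney injury molecule 1, a phosphatidylserine receptor of injured proximal tubule, read 39.3, 308, 70.1 and 1328, a difference of 4.60 with 2.55 in KO control and 0.64 in WT ALDO. Its WT control reading was under the median of that array, so the size rests on a dim value, and it was named after its values were seen. The hyaluronan receptor Cd44, also below the counted range, read 108, 343, 123 and 693. Both were highest on KO ALDO, with KO control next.

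**Figure D3:**
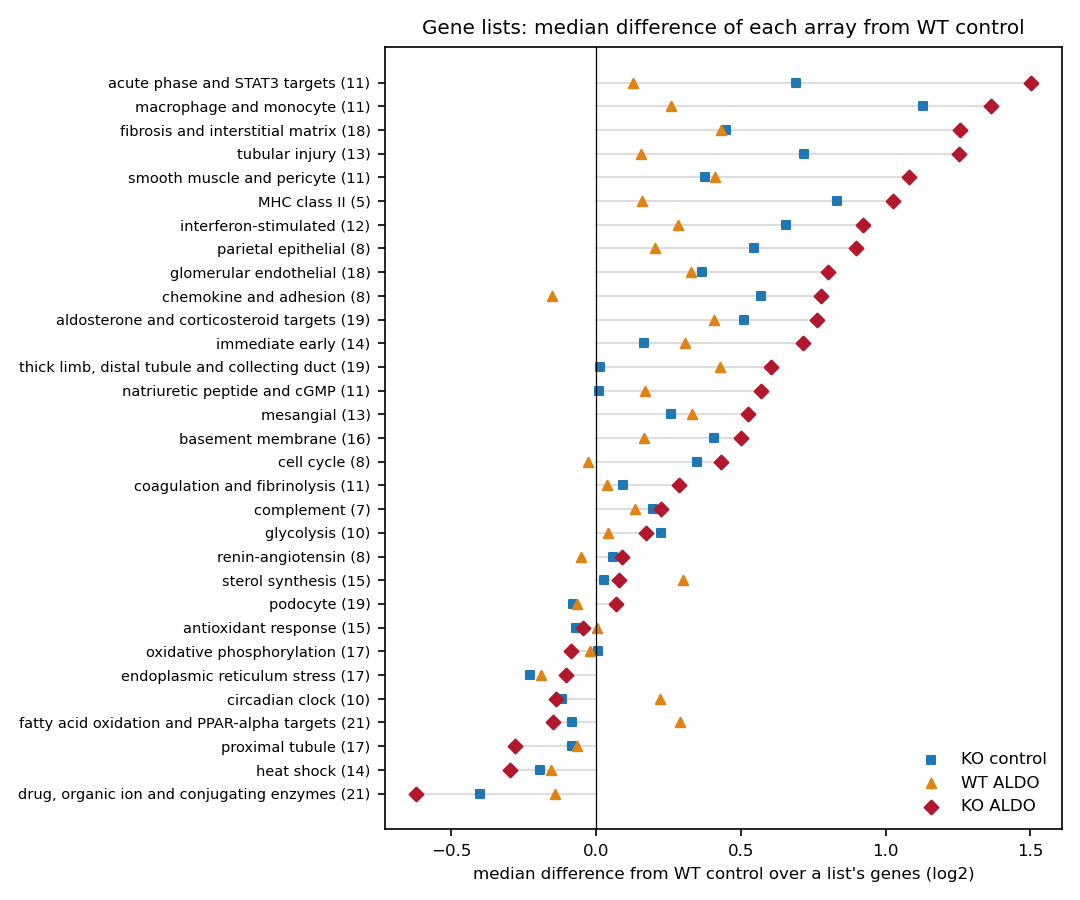
Median difference from WT control of the counted genes of each list (number in brackets), log2(intensity + 16), for the KO control, WT ALDO and KO ALDO arrays, for the lists with 5 or more counted genes and with 1 array per group. Acute phase genes (1.50), macrophage genes (1.36) and fibrosis genes (1.26) are highest in KO ALDO; for macrophages KO control lies near it at 1.13, while for fibrosis the single arrays lie at 0.45 and 0.43. Drug and conjugating enzymes are lowest (-0.62).

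Genes of the extracellular matrix were higher in KO ALDO, and most of them, like most higher genes, reached 2-fold in neither single array. All 18 counted genes of fibrosis and interstitial matrix were higher, 17 of them past 2-fold, where 3.00% of all genes were. Tnc and Col5a1 read under 247 on WT control and were counted through their other arrays. Of the 17, 13 were past 2-fold in neither single array and 4 in KO control. Over all higher genes, 188 of 273 (68.9%) were in neither, so the list lay near the general share. The list's medians were 1.26 in KO ALDO, 0.45 in KO control and 0.43 in WT ALDO. Its summed intensity over 24 probe sets was 29892, 41820, 38731 and 70038.

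Fn1 (fibronectin) read 511, 757, 685 and 1980, a difference of 1.92 against 0.55 and 0.41, though the mean of its probe sets gave 1.30. Col3a1, a fibrillar collagen, read 520, 1172, 857 and 2000, a difference of 1.91 with 1.15 in KO control. Tnc, tenascin C, a glycoprotein of remodelling matrix, read 193, 350, 155 and 665. Dcn, the proteoglycan decorin, and Tgfbi, a matrix protein induced by TGF-beta, stood at 1.70 and 1.58, with KO control at 1.52 for Dcn and just past 2-fold for Tgfbi. Col1a2, a chain of type I collagen, read 2500, 2947, 2844 and 5510, with 1.14 in KO ALDO against 0.24 and 0.18. Loxl1, a collagen and elastin crosslinking enzyme, was at 1.27 against 0.25 and 0.37. For Fn1, Col1a2 and Loxl1 the single arrays lay close together and KO ALDO stood apart, while for Col3a1, Tnc, Dcn and Tgfbi KO control was the higher of the 2.

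The other genes of the list differed in how far the single arrays went. Ccn2, connective tissue growth factor, read 6459, 9656, 9365 and 13969, a difference of 1.11, to which KO control (0.58) and WT ALDO (0.53) added up within 0.01. Sparc, a collagen-binding protein, read 7156, 9385, 8911 and 14749, a difference of 1.04. Mmp2, a gelatinase, was at 1.05 in KO ALDO and 1.12 in KO control. Col5a2 was the 1 counted gene of the list under 2-fold, at 0.64. Timp1, the metalloproteinase inhibitor, was below the counted range and read 52.5, 166, 65.1 and 376.

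Basement membrane genes were higher by less. Of 16 counted genes 15 were above 0, with a median of 0.50 and 3 past 2-fold. The ubiquitous type IV collagen chains Col4a2 and Col4a1 stood at 1.24 and 1.06, and the linker nidogen Nid1 at 1.23, with 0.62 in its next-brightest probe set. Col4a1 read 3544, 5838, 3776 and 7396, higher on both knockout arrays. The chains made by podocytes, Col4a3, Col4a4 and Col4a5, stood at -0.05 (0.17 in another probe set), 0.45 and 0.34.

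Contractile and pericyte genes were higher in KO ALDO, and here WT ALDO showed as much as KO control. All 11 counted genes were above 0, with medians of 1.08 in KO ALDO, 0.38 in KO control and 0.41 in WT ALDO, and 6 were past 2-fold. With the mean of all probe sets the list's median in KO ALDO was 0.61. Tagln, the actin-binding protein transgelin, read 478, 719, 805 and 1995, a difference of 2.02 against 0.57 and 0.73. Acta2, smooth muscle actin, read 2511, 2966, 3586 and 6797, a difference of 1.43 against 0.24 and 0.51. Myh11, smooth muscle myosin, was high on both ALDO arrays at 178, 296, 552 and 510. It was under 247 on WT control and was counted through its other arrays. Rgs5, a pericyte regulator of G protein signalling, read 4039, 5161, 6976 and 9159, with 0.35 in KO control and 0.79 in WT ALDO.

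**Figure D4:**
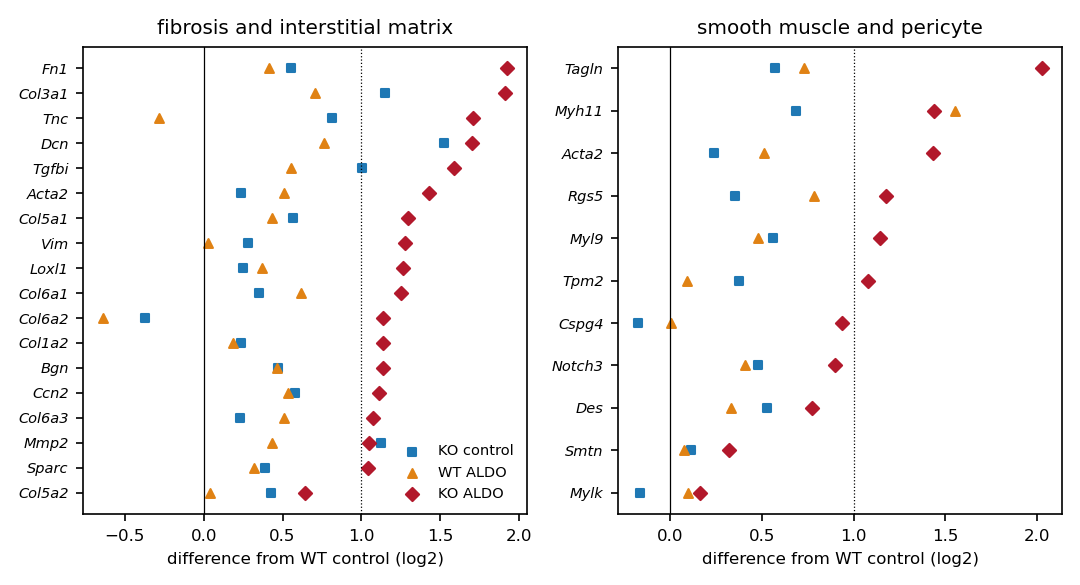
Difference of each array from WT control, log2(intensity + 16), for the counted genes of the fibrosis and interstitial matrix list (left, 18 genes) and the smooth muscle and pericyte list (right, 11 genes), 1 array per group. The dotted line marks 2-fold. KO ALDO lies past it for 17 and 6 genes, and for most genes KO control and WT ALDO lie together short of it, with Col6a2 at -0.38 and -0.64 on the single arrays.

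Of the lists for cells of the glomerular tuft, endothelial genes were higher and podocyte genes near WT control. Tubular RNA was abundant as well, and whether the endothelial signal came from the tuft was not tested. All 18 counted endothelial genes were above 0, with medians of 0.80, 0.37 and 0.33 in KO ALDO, KO control and WT ALDO. Of them 5 were past 2-fold, where 3.00% of all genes were, and Sost was the highest at 2.08. Sost and Tie1 read under 247 on WT control and were counted through their other arrays, so the count and median carry that choice. Cdh5, VE-cadherin, read 603, 987, 1060 and 1465, a difference of 1.26. Eng, endoglin, a TGF-beta co-receptor, read 2140, 2720, 3280 and 4544, and Cd34 read 1113, 1442, 1305 and 2552. Tie1 read 201, 302, 439 and 544, past 2-fold in WT ALDO as well. Ehd3, a marker of the glomerular endothelium, was at 0.41, and its 2 highest arrays were KO control and KO ALDO at 5107 and 4948. The summed intensity of the list was 26673, 34602, 32618 and 45499.

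Of 13 counted mesangial genes 11 were above 0, with medians of 0.52, 0.26 and 0.33 and 2 past 2-fold. Those were Lhfp at 1.07 and the actin-binding Cald1 at 1.06, with 0.83 in the next-brightest probe set of Cald1. Pdgfrb, the PDGF receptor of mesangial cells and pericytes, read 2689, 3323, 3623 and 5391, and Itga8, an integrin of the mesangium, stood at 0.40. Tnfaip8 was the lowest, at -0.75.

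The 19 counted podocyte genes had a median of 0.07, with 11 above 0, none past 2-fold higher and 1 past 2-fold lower. Nphs1 (nephrin of the slit diaphragm) stood at 0.12, Podxl (podocalyxin) at 0.17, Synpo at -0.03 and the transcription factor Wt1 at -0.29. Cdkn1c and Ptpro were the highest, at 0.85 and 0.73, and both were high on the 2 ALDO arrays, though another probe set of Ptpro gave 0.01. The 1 gene past 2-fold was Sema3g, a secreted semaphorin, which read 5641, 6674, 1843 and 1734, so that WT ALDO (-1.61) already showed 94.9% of the combined difference of -1.69. The summed podocyte intensity was 63293, 64333, 61311 and 67003.

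Parietal epithelial genes had a median of 0.90 over 8 counted genes, of which 4 were past 2-fold and 2 were below 0. The 2 were Pax8 at -0.14 and Scin at -0.01. Those past 2-fold included Krt18 of the injury list and Cp of the acute phase list, and Cav1 (caveolin) read 1412, 2596, 1991 and 3613.

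In the distal nephron the 3 subunits of the epithelial sodium channel, the channel that aldosterone opens, were past 2-fold. Scnn1g read 871, 2040, 1235 and 2599, a difference of 1.56 with 1.21 in KO control. Scnn1b read 340, 803, 520 and 715, and Scnn1a read 534, 768, 549 and 1196. Sgk1, the kinase that aldosterone induces to keep the channel at the membrane, read 7647, 10820, 10325 and 14065, a difference of 0.88 with 0.50 and 0.43 in the single arrays. Over the whole list of thick limb, distal tubule and collecting duct 11 of 19 genes were above 0 and the median was 0.60. Slc12a3, the thiazide-sensitive cotransporter, was at 0.65, while Slc12a1, its counterpart of the thick limb, was at -0.92, reading 13536, 8941, 11951 and 7130. The summed intensity of this list was 113650, 115488, 123806 and 121766. Of 19 counted targets of corticosteroids 15 were above 0, with medians of 0.76, 0.51 and 0.41 and 4 past 2-fold, all among the genes already named. Cdkn1a among them read under 247 on WT control and was counted through its other arrays.

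Genes of the proximal tubule were slightly lower. Of 17 counted genes 15 were below 0, the median was -0.28, and the summed intensity was 371415, 354572, 356012 and 322906. The 1 gene past 2-fold was Slc7a13, an amino acid transporter of the straight segment, which read 10467, 7138, 9159 and 4181, a difference of -1.32 (-0.80 in its next-brightest probe set). Lrp2 (megalin) stood at -0.47 and Slc34a1 at -0.18. Kap, an androgen-regulated proximal tubule gene, stood at -0.14, and at 0.11 in another probe set.

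The lower genes were led by enzymes and transporters that handle drugs, steroids and organic ions, most of them proximal tubule products. Of 21 counted genes of that list 18 were below 0 and 8 were past 2-fold lower, where 0.671% of all genes were. The medians were -0.62 in KO ALDO, -0.40 in KO control and -0.14 in WT ALDO. The part of the lower proximal tubule signal in these values was not tested. Several belong to families of near-identical genes (Ugt2b, Cyp2d, Ces1), whose probes can share signal, so the member named is uncertain.

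Ugt2b38, a glucuronosyltransferase, was lowest, at 26588, 6569, 5543 and 4512, a combined difference of -2.55 or 5.87-fold. Each single array was already at -2.01 and -2.26, so it was high on WT control alone. Myrf, a membrane-bound transcription factor, read 1523, 469, 557 and 317, with -1.67, -1.42 and -2.21 in KO control, WT ALDO and KO ALDO. Slc22a7, an organic anion transporter, read 2052, 594, 985 and 581, with KO control at 98.4% of the combined difference of -1.79. Cyp2d12, a cytochrome P450, read 5354, 1702, 2532 and 1848. These 4 genes made up the whole group that was past 2-fold lower in both single arrays.

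Ces1g, a carboxylesterase, was low on both knockout arrays, at 541, 129, 746 and 121. Dao (D-amino acid oxidase) read 6652, 2876, 4404 and 2539, also past 2-fold in KO control, and Serpina1f, of the serpin family, stood at -1.46 with -1.13 in KO control. Car3, a carbonic anhydrase, read 11254, 7931, 2332 and 2917, with KO control at -0.50 and WT ALDO (-2.26) beyond KO ALDO (-1.94). Hsd3b3, a steroid dehydrogenase, read 2306, 2096, 1100 and 808, and F5 (coagulation factor V) read 967, 605, 361 and 355. Like Sema3g, they were low on both ALDO arrays.

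Another set of lower genes was past 2-fold in neither single array. Mep1b, the beta subunit of the brush border protease meprin, read 1741, 908, 1236 and 528, a difference of -1.69. Acsm3, a mitochondrial acyl-CoA synthetase, read 5140, 2953, 3687 and 1607, a difference of -1.67. Azgp1, zinc-alpha-2-glycoprotein, read 3333, 1984, 1811 and 1082, and its single differences of -0.74 and -0.87 summed to within 0.01 of the combined -1.61. Cndp1 (carnosinase), Cyp2d9 and the organic anion transporter Slco1a1 stood at -1.53, -1.51 and -1.51. In each the single arrays lay between WT control and KO ALDO.

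Energy metabolism differed little as a group. The 21 counted genes of fatty acid oxidation and PPAR-alpha targets had a median of -0.15, with WT ALDO at 0.29, and 4 were above 0. Cyp4a14 was the 1 gene of that list past 2-fold. Ppara itself stood at -0.54 and the peroxisomal enzyme Ehhadh at -0.65, reading 8311, 5732, 10980 and 5297. Of 17 subunits of oxidative phosphorylation 1 was above 0, with a median of -0.08 and a lowest value of -0.30 (Sdha). Glycolysis genes had a median of 0.17, with Pkm and Pfkp past 2-fold at 1.18 and 1.15, and sterol synthesis genes a median of 0.08.

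In the natriuretic peptide pathway 9 of 11 counted genes were above 0, with a median of 0.57 in KO ALDO, 0.01 in KO control and 0.17 in WT ALDO. Of the receptors, Npr3, which clears the peptides, read 1051, 994, 1183 and 1088, and Npr2, which binds C-type natriuretic peptide, read 774, 589, 736 and 668, differences of 0.05 and -0.21. The next-brightest probe set of Npr3 gave -0.47. The ligands were dim: Nppa read 42.4, 50.1, 3.76 and 42.2 and Nppb 78.8, 95.8, 48.1 and 79.0. Downstream, Prkg1, the kinase activated by cyclic GMP, stood at 0.57, and the soluble cyclase subunit Gucy1a1 at 0.61 with 0.70 in WT ALDO. Pde2a, a phosphodiesterase that cyclic GMP stimulates, read 1659, 2154, 2349 and 3340, just past 2-fold. Pde9a, which breaks cyclic GMP down, was the lowest, at -0.67. Of 8 renin-angiotensin genes none was past 2-fold, the median was 0.09, and Agt was the highest at 0.50.

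Stress and growth lists were mixed. All 14 immediate early genes were above 0, with medians of 0.71, 0.17 and 0.31, and Fos and Klf4 were past 2-fold at 1.15 and 1.06. All 8 counted cell cycle genes were above 0 with a median of 0.43, and Rrm2 (ribonucleotide reductase) was the 1 past 2-fold, at 1.04 in both knockout arrays. Fos and Rrm2 read under 247 on WT control and were counted through their other arrays. For comparison, 3.00% of all genes were past 2-fold higher. Heat shock genes had a median of -0.30. Hspa1b and Hspa1a, near-identical copies of Hsp70, were lower on all 3 other arrays than on WT control, Hspa1b at 8546, 3014, 3291 and 4694. Hspb1, a small heat shock protein, read 1542, 1343, 1347 and 2916, high on KO ALDO alone. Genes of endoplasmic reticulum stress, antioxidant response and the circadian clock had medians of -0.10, -0.05 and -0.14, with none past 2-fold. In the coagulation list (median 0.29) Thbd (thrombomodulin) and the thrombin receptor F2r were past 2-fold higher, at 1.32 and 1.16, and F5 and Proc (protein C) past 2-fold lower. Of 7 complement genes other than C1q, C1s1 and Serping1 were past 2-fold higher, at 1.26 and 1.12, and Cfb was the lowest at -0.58. The erythroid list had 1 counted gene, Slc4a1, an anion exchanger also made by collecting duct, at 0.60.

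The combined difference was close to the sum of the 2 single differences for most of the genes. It lay within 0.5 of the sum for 205 of the 273 higher genes and 42 of the 61 lower genes. The middle 50% of higher genes lay between -0.17 and 0.36 from the sum, and of lower genes between -0.38 and 0.22. It went beyond the sum by 2-fold or more for 8 higher genes and fell short by as much for 5. For lower genes these counts were 1 and 4. Over all 9097 genes 0.594% lay 2-fold or more above the sum and 0.330% as far below it. The distance from the sum uses all 4 arrays and so carries the error of each. The genes were chosen by KO ALDO and WT control values that also enter this distance, so the counts carry that choice. The share of all 9097 genes within 0.5 of the sum was not computed, so closeness to it cannot be called particular to the large differences.

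Col6a2, a chain of type VI collagen, went furthest beyond the sum. It read 352, 267, 220 and 793, so that both single arrays were lower than WT control (-0.38 and -0.64) while KO ALDO was higher by 1.14, a distance of 2.15. Its next-brightest probe set gave 0.76 for the combined difference. Ccn1, a matricellular protein induced by growth factors and stretch, read 838, 846, 588 and 1782, a distance of 1.56 (combined difference 1.07, and 0.48 in its next probe set). Socs3 came next, at 1.35, and Fgg and Fga lay 1.25 and 1.24 beyond the sum. Among lower genes Smlr1, a small leucine-rich protein, read 944, 875, 900 and 372, a distance of -1.13. It was the only lower gene so far beyond the sum with this scaling and filter. Ces2b (1014, 823, 1001, 471) and Tmigd1 (10852, 7858, 11822, 5091), an adhesion protein of epithelium, were also lowest on KO ALDO, at -0.77 and -0.75. Smlr1 and Ces2b were nearer to WT control than to KO ALDO on both single arrays.

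For several genes the combined difference fell short of the sum, as a single array already had most or all of it. Cyp4a14 fell 1.70 short and Ugt2b38 1.72 short. Birc3, an inhibitor of apoptosis induced by NF-kappaB, read 368, 1123, 771 and 963, and Cox6b2, a cytochrome c oxidase subunit, read 284, 569, 798 and 679. For both, a single array was higher than KO ALDO. Among lower genes Spns3, a sphingolipid transporter homologue, read 980, 557, 364 and 454 and had the same pattern, as did Cyp2d12.

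**Figure D5:**
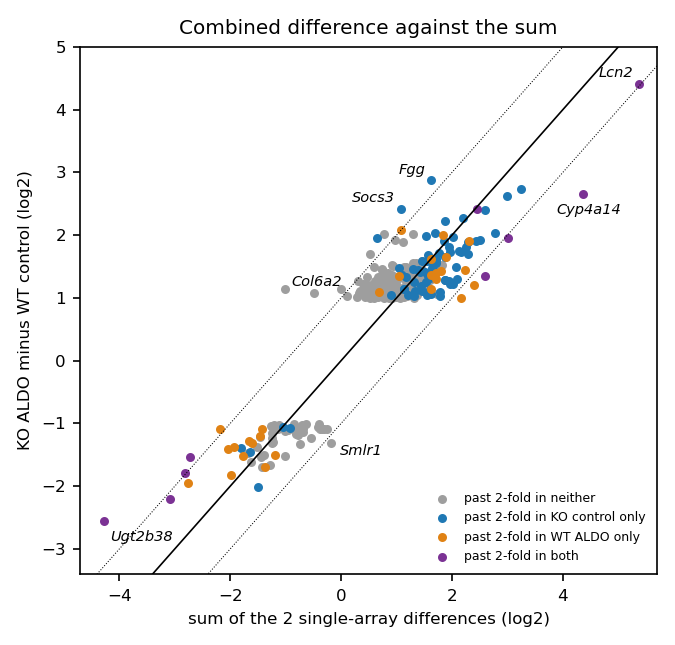
Combined difference of KO ALDO from WT control (vertical axis) against the sum of the KO control and WT ALDO differences (horizontal axis), log2(intensity + 16), for the 334 genes past 2-fold, 1 point per gene and 1 array per group. The solid line is equality and dotted lines are 2-fold either side. Most points lie between the dotted lines (Lcn2 is 0.96 short of equality), Col6a2, Socs3, Fgg and Smlr1 lie beyond them, and Cyp4a14 and Ugt2b38 fall short.

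The 2-fold limit divided genes of nearly the same value. H2bc22, a histone gene, and Btnl9, a butyrophilin-like protein, were just inside at 1.001 and 1.003, and Sox4, an epithelial transcription factor, and Peg3 just outside at 0.9999 and 0.9993. On the lower side Gys2 (glycogen synthase of liver) and Olfm3 were just inside at -1.001 and -1.004, and Slc2a5 (a fructose transporter) and Fabp7 (a fatty acid-binding protein) just outside, both at -0.99.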

How the data were processed

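Total RNA from mouse glomeruli was measured on 4 Affymetrix 3' arrays, 1 per group, and groups were taken from the sample titles. The authors deposited 1 linear intensity per probe set and array. Affymetrix Expression Console is named in the submitters' processing notes. Its algorithm, background correction and detection calls are not stated there. From the values, each array had been scaled to a trimmed mean of 500.003 (2% left out at each end), which hides a change of the whole transcriptome.

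Values computed from the deposited intensities were log2(intensity + 16). Of 45101 probe sets, 64 controls were left out, 34945 had 1 gene symbol in the platform annotation, 932 had several and 9224 were unnamed or not listed. Identifiers of 34741 were found in a RefSeq table (GRCm38.p6), which changed 0 symbols. Each of 18193 genes was represented by its brightest probe set (mean of all 4 arrays), and the 9097 in the upper 50% by mean were counted (log2 value from 8.04, intensity from 247). A gene was past 2-fold at a log2 difference of 1. With 1 array per group no test, interval or depth-based error can be given, and the number of arrays limits the precision.

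Each gene past 2-fold was classed by whether KO control, WT ALDO, both or neither was past 2-fold in the same direction. The named genes were the 12 highest and 12 lowest (no clone names, no bright probe set of opposite sign), the 3 largest of each class, the 3 furthest beyond or short of the sum of single differences in each direction, up to 2 highest and 2 lowest of each list and its genes past 2-fold, the natriuretic peptides and receptors, and the 2 nearest each side of the limit; others were chosen after their values were seen. The 34 lists held 551 genes, 503 with a probe set and 395 counted. The comparison, members and lists were chosen with earlier results of these data known. Alternatives were pseudocounts of 1 and 64, quantile normalization, median centring, no filter, the brightest 25% and the mean of all probe sets. The steps were tested on simulated data. Python 3.11.15, numpy 2.4.6 and pandas 2.3.3 were used.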

Additional observations from a re-analysis of the deposited data

Results flagged for a closer look

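Hmox1, heme oxygenase 1, a stress-induced enzyme that breaks down heme, was flagged because the ALDO difference went opposite ways in the 2 genotypes. The control arrays read 632 (WT) and 286 (KO), and the ALDO arrays 262 (WT) and 612 (KO). The ALDO difference was -1.22 in WT and 1.06 in KO, a gap of 2.28 in log2, and the combined difference between KO ALDO and WT control was -0.05. Each genotype had 1 array per treatment, and the difference between them was not tested.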

How the results depend on the processing

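The counts moved most with the filter on dim genes and with centring. Of the 273 higher and 61 lower genes, centring arrays on their medians gave 155 and 137, no filter 1216 and 433, and the brightest 25% gave 97 and 38. In that order, higher genes past 2-fold in KO control alone numbered 40, 269 and 19, and those in neither single array 99, 632 and 70. Lower genes past 2-fold in KO control alone numbered 9, 77 and 2, and those in WT ALDO alone 19, 75 and 3. Lower genes in neither numbered 103 with centring and 232 without a filter. Higher genes in WT ALDO alone numbered 141 without a filter and 6 in the brightest 25%, and lower genes in both 49 and 2. Higher genes in both numbered 8 with a pseudocount of 1, 174 without a filter, 2 in the brightest 25% and 8 when probe sets were averaged. Higher genes 2-fold or more beyond the sum numbered 5 with centring, 136 without a filter and 2 in the brightest 25%. Higher genes as far short of it numbered 3 with quantile normalization, 153 without a filter, 2 in the brightest 25% and 8 with the mean of probe sets. Lower genes beyond it numbered 72 without a filter, 0 in the brightest 25% and 3 with the mean of probe sets, and those short of it 51 without a filter and 2 in the brightest 25%. Filters change how many genes are counted; the cause of the other moves was not tested. The complement median reversed from 0.23 to -0.47 in the brightest 25%, where fewer genes are counted.

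The mean of all probe sets kept 189 of the 273 higher and 46 of the 61 lower genes, and all were kept without a filter. Of 234 list medians under the alternatives 229 kept their sign. Besides complement, centring turned the medians of podocyte (-0.11), renin-angiotensin (-0.08), sterol synthesis (-0.09) and glycolysis (0.00, just below 0) genes. Among named genes the mean of probe sets lowered Cdkn1a to 1.33, Fn1 to 1.30 and Peg3 to 0.23. No paired analysis was possible because each group had 1 array.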

Other observations

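Gene families were also read by symbol, after the values had been seen, with all counted members, some of which the lists above already held. Over all genes 3.00% were past 2-fold higher and 0.671% past 2-fold lower. Among members past 2-fold higher, Thbs1, Thbs2, Pdlim1, Anxa6 and Slco4a1 read under 247 on WT control. They were counted through their other arrays, which favours a higher reading in KO ALDO. Of 23 actin-binding proteins of the contractile and focal adhesion apparatus 21 were higher in KO ALDO, 11 past 2-fold, with medians of 0.96 in KO ALDO, 0.33 in KO control and 0.16 in WT ALDO. The lists held 4 of these 11. The others included Flna (filamin) at 1.29, Tpm1 (tropomyosin) at 1.28, Csrp1 at 1.20 and Actn1 (actinin) at 1.08, while Actn4, the actinin of podocytes, was at 0.29. Of 5 caveola proteins 3 were past 2-fold, Cav1 at 1.35, Cav2 at 1.26 and Cavin1 at 1.01. Among 7 tubulins Tubb5, Tuba1a and Tubb2a were past 2-fold, at 1.18, 1.09 and 1.03, though another probe set of Tubb5 gave 0.55. The matrix glycoproteins Emilin1, Thbs2 and Thbs1 stood at 1.52, 1.27 and 1.26, and Fbln5, counted with them, at 0.58.

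Claudins, which set the permeability of tight junctions, divided by member. After Cldn4, Cldn7 and Cldn3 were past 2-fold at 1.49 and 1.13, while Cldn2 of the proximal tubule stood at -0.15 and Cldn16 and Cldn10 of the thick limb at -0.76 and -0.43. Of 8 annexins 2 were past 2-fold higher, Anxa1 (1.20) and Anxa6 (1.09), and Anxa13 was past 2-fold lower at -1.27. All 8 counted S100 proteins were higher, led by S100a4 at 1.56. Of 7 carboxylesterases 6 were lower and 3 past 2-fold, Ces1g, Ces1e at -1.30 and Ces2b. Of 17 V-ATPase subunits Atp6v0d2, a list gene, was past 2-fold, at 1.28 (0.77 in another probe set), and the median of the family was -0.01. Families 2 and 4 of cytochrome P450 were mixed, with 2 of 18 past 2-fold higher and 3 past 2-fold lower. Of 6 organic anion transporting polypeptides 1 was past 2-fold higher and 1 lower.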
